A study of Mus musculus with 12 samples.

Results

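The 36 genes described here encode ribosome biogenesis factors, the proteins that transcribe ribosomal RNA, modify and cut it, and assemble it with ribosomal proteins into the small and the large ribosomal subunit. They are a list of gene symbols, made with earlier results of these data known, and all 36 were among the 11289 genes of the deposited liver table. By role they were grouped as subunits of RNA polymerase I (4 genes), core proteins of the box C/D snoRNPs (3 genes), core proteins of the box H/ACA snoRNPs (4 genes), factors of small subunit assembly (7 genes), factors of large subunit assembly (13 genes) and proteins of nucleolar organisation and regulation (5 genes). Most of this work takes place in the nucleolus, where RNA polymerase I copies the ribosomal RNA genes and where small nucleolar RNAs (snoRNAs), each bound to a set of core proteins, guide the modification of the transcript. Ribosome production is a large part of what a growing cell makes, and its genes are known as targets of the transcription factor MYC. In liver, ribosome biogenesis is known to increase in hepatocytes that re-enter the cell cycle and in activated lymphocytes.

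Liver RNA was sequenced from 12 C57BL/6J mice, with 4 mice in every group. The groups were control, Con A + PBS, and Con A followed by hWJ-MSCs (Con A + hWJ-MSCs). Both treated groups received a single dose of Con A, a lectin of plants, known to activate T cells and to cause immune-mediated hepatitis, at 15 mg/kg into the tail vein. After 30 min the Con A + PBS group received phosphate-buffered saline (PBS), the vehicle, and the Con A + hWJ-MSCs group received 2000000 hWJ-MSCs (human mesenchymal stem cells grown from Wharton's jelly, the soft tissue of the umbilical cord) in 200 µL of PBS. Livers were taken 24 h after the Con A injection. What the control mice received is not stated in the labels. The labels give an age of 8 to 10 weeks, while the methods of the study give a younger age range and a smaller number of cells and state that the mice were male. The labels name no transgene or deletion in any group. How many of the human cells were still in each liver was not measured here. The labels count 4 animals in a group, each with 1 library, and replicate numbers are used here as names of the mice.

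The deposited values are whole numbers that had already been normalised between mice, so that the median value was 352 in every mouse and the totals lay between 17649654 and 17657159. They are not read counts, and the sequencing depth is unknown. Every gene reached 64 in at least 2 mice, so genes that stayed below this were not in the table. All 36 factors passed, but the 4 control mice were all below 64 for Gar1, which is therefore in the table through its values after Con A. Values were compared within a gene only, on the log2(value + 1) scale with limma, and a gene was called when its Benjamini-Hochberg adjusted p over all genes was below 0.05 and its fold change above 1.5. Changes given without the word fold are differences on that log2 scale, and ± marks the standard error of the fit. In whole liver RNA, a change in the number of cells of a type and a change in RNA per cell cannot be told apart.

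The snoRNPs (small nucleolar ribonucleoproteins) are particles of a snoRNA and its core proteins, and several of the 36 genes carry snoRNAs in their own introns. By the GENCODE M21 annotation of GRCm38, 17 snoRNA genes lay within introns of 6 of the 36 factors, with 4 each in Nop56 and Nop58, 3 each in Gnl3 and Ncl, 2 in Tsr1 and 1 in Dkc1. That is 16.7% of the factors, against 1.73% of the 11243 genes of the table that were matched (195 genes). The table holds 0 rows named as snoRNAs, so the snoRNAs themselves were not measured here. Snord110 of Nop56 (chr2:130275506-130275573, plus strand) and Snord11 of Nop58 (chr1:59704790-59704873, plus strand) are shown because these host genes encode the proteins that bind box C/D snoRNAs and because both boxes were found in them by these letters. Of the other named snoRNAs of these hosts, Snord57 of Nop56 and Snord70 of Nop58 held box D but no match to the letters of box C, and are not shown. Capitals mark the first match to box C (searched as TGATGA) and the last match to box D (CTGA), read 5′ to 3′ in DNA letters.
Snord110: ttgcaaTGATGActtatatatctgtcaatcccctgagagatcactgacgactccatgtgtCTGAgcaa
Snord11: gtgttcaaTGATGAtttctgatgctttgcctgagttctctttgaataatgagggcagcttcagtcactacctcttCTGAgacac

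Promoters are shown for the 3 factors with the largest rise after Con A among those with an entry and for the factor with the lowest fold change, taken from RefSeq (GRCm38.p6) as the 250 bases before the start site. They are Tsr1 (chr11:74897830-74898079, plus strand), Heatr1 (chr13:12395125-12395374, plus strand), Ddx21 (chr10:62602299-62602548, minus strand) and Nop10 (chr2:112261676-112261925, plus strand). The RefSeq table held a promoter for 30 of the 36 factors, and those without an entry were Npm1, Rrp12, Rrs1, Fbl, Bop1 and Rpf1. The capitals mark the ETS motif CCGGAAG, the only match within these 4 stretches among the 4 motifs searched.
Tsr1: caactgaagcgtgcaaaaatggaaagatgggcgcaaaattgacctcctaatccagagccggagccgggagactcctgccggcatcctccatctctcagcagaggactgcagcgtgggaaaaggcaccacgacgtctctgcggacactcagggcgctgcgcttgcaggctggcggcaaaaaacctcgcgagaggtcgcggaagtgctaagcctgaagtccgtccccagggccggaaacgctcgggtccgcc
Heatr1: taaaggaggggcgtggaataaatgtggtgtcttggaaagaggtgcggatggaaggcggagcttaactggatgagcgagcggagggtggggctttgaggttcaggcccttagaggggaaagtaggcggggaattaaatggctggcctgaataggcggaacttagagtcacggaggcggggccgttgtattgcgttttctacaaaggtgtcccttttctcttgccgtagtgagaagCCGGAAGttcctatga
Ddx21: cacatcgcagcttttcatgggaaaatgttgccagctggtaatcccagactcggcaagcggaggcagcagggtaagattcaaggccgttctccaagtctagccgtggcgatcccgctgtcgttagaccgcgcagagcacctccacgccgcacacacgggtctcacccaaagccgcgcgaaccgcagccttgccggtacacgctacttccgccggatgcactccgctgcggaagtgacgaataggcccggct
Nop10: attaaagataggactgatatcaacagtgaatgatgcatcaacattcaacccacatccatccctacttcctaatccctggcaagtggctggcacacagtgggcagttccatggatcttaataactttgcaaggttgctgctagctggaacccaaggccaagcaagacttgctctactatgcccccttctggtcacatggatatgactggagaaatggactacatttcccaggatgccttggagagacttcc

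The motifs were searched on both strands in windows from 250 bases before to 50 bases after the start site. The E-box CACGTG, the sequence bound by MYC with its partner MAX, was in 5 of the 30 factors (16.7%) and in 10.2% of the 8492 genes of the table with a promoter. The ETS motif was in 36.7% of the factors and 18.8% of those genes, the GC box (GGGCGG) in 70% and 64.8% and the TATA box (TATAAA) in 6.67% and 7.56%. None of the motifs contains another, and a match says nothing of binding. The 5 E-box windows are given side by side, 30 bases each with the E-box in capitals. The E-box began 60 bases before the start site in Nop2 (chr6:125131811-125131840, plus strand), and after it at base 3 in Pes1 (chr11:3963965-3963994, plus strand), base 25 in Tsr1 (chr11:74898092-74898121, plus strand), base 29 in Ltv1 (chr10:13193092-13193121, minus strand) and base 41 in Mybbp1a (chr11:72441347-72441376, plus strand).
Nop2: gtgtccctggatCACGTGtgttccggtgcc
Pes1: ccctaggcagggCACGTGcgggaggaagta
Tsr1: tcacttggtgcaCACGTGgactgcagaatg
Ltv1: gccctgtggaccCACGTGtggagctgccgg
Mybbp1a: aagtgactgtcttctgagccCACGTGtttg

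At 24 h after Con A, most of the factors were higher in liver. Between the control and the Con A + PBS group, 26 of the 36 rose, 0 fell and 10 were not called, where 19.5% of all genes rose and 19.2% fell (limma; 0 factors were lower at an unadjusted p below 0.05). The median log2 fold change of the factors was 0.97, beside 0.05 over all genes, and 35 of 36 were above 0. By the adjusted p alone 32 were higher, beside 29.5% of all genes. In 31 factors every Con A + PBS mouse was above every control mouse, which held for 27.1% of all genes. By role, 5 of 5 genes of nucleolar organisation, 6 of 7 of small subunit assembly, 9 of 13 of large subunit assembly, 2 of 3 box C/D genes, 2 of 4 box H/ACA genes and 2 of 4 RNA polymerase I genes rose.

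With hWJ-MSCs, 18 factors were still called above control and 3 were called below the Con A + PBS group. Between the 2 Con A groups, 3 of 36 fell, namely Tsr1, Ddx21 and Mybbp1a, and 0 rose, where 4.38% of all genes fell and 4.20% rose. By the adjusted p alone 5 were lower (6.65% of all genes) and 0 higher (6.50% of all genes), the further ones being Nop2 and Rrs1. At an unadjusted p below 0.05, 15 factors were lower (16.6% of all genes) and 1 was higher (2028 of the 11289 genes were). The median log2 fold change was -0.28, beside 0.00 over all genes, and 33 of 36 factors were below 0. The ranges of the groups were apart with lower values after hWJ-MSCs in 10 factors (11.6% of all genes) and with higher values in 1 (11.9% of all genes). Against control, 18 of 36 rose with hWJ-MSCs and 0 fell, where 13.6% of all genes rose and 13.1% fell (0 factors were lower at an unadjusted p below 0.05), with a median log2 fold change of 0.57. By the adjusted p alone 25 were higher (22.3% of all genes), and in 24 every mouse with hWJ-MSCs was above every control mouse (20.6% of all genes). The first and the second comparison share the Con A + PBS mice, and the first and the third share the control mice, so their values are given side by side only.

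**Figure D1:**
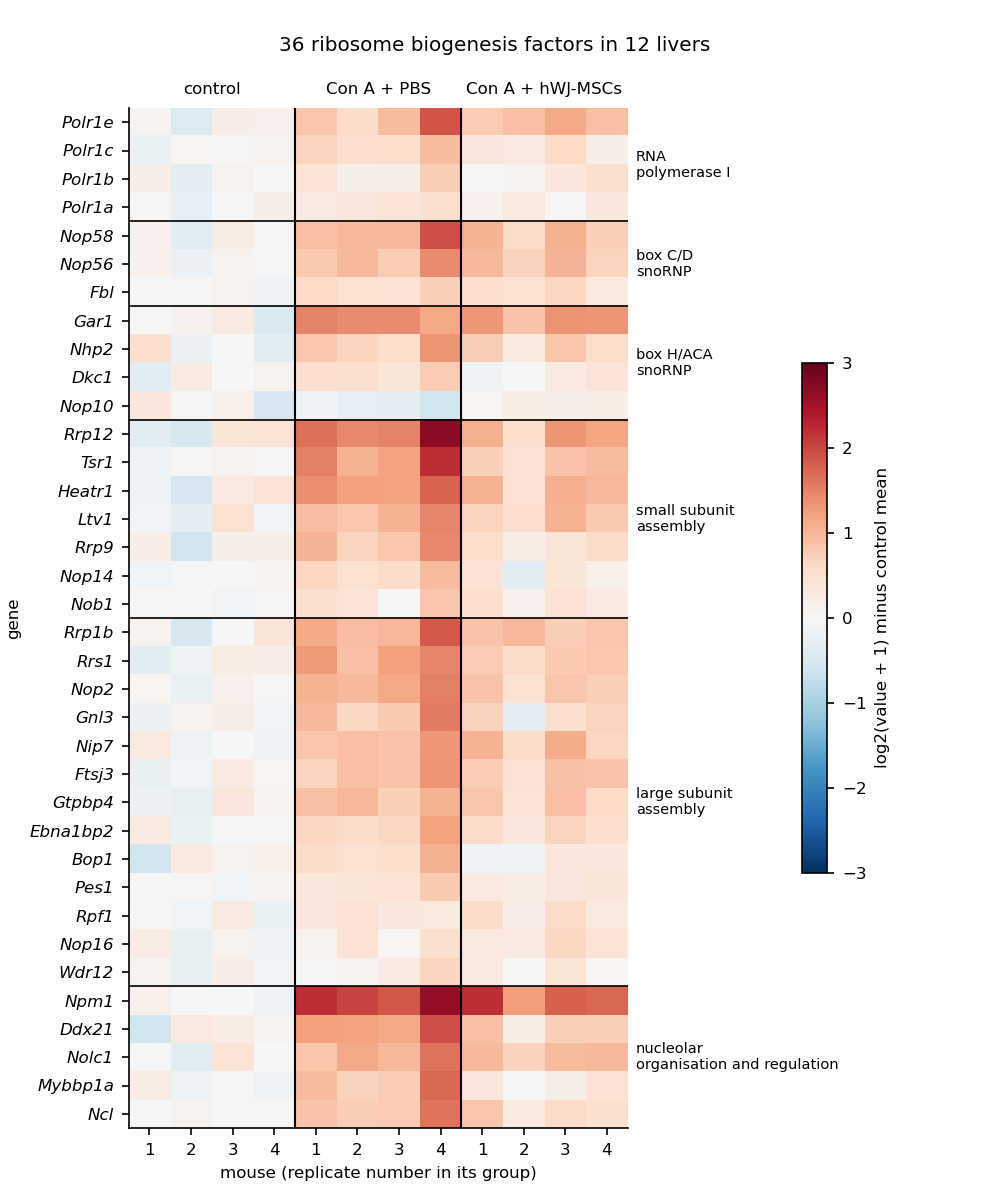
Heat map of the 36 factors (rows, grouped by role) in the 12 livers (columns, mice 1 to 4 of each group). Colour shows log2(value + 1) minus the mean of the control mice. Con A + PBS mouse 4 is the highest of all 12 mice for 32 factors. Nop10 is the only row with a log2 fold change below 0 after Con A, and it is 1 of 5 rows in which the Con A + PBS and control mice overlap.

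The levels differed between mice of a group. Con A + PBS mouse 4 was the highest of its group for 33 of the 36 factors and the highest of all 12 mice for 32, whereas it was the highest or tied highest of its group for 41.2% of all genes. The median difference of the 36 factors from the control mean was 0.83, 0.68, 0.76 and 1.32 on the log2 scale in Con A + PBS mice 1 to 4, and 0.71, 0.30, 0.69 and 0.60 in Con A + hWJ-MSCs mice 1 to 4. In the latter group, mouse 2 was the lowest for 27 of the 36, and the lowest or tied lowest for 31.4% of all genes. Without Con A + PBS mouse 4, 23 factors rose after Con A (18.3% of all genes), and the calls of Polr1c, Nop14 and Bop1 were lost. Without it, 0 factors fell between the Con A groups (limma, 1.32% of all genes), and 1 was lower by the adjusted p alone (194 of the 11289 genes). Nop2 and Rrs1 then had limma adjusted p of 0.107 and 0.114. At an unadjusted p below 0.05, 7 factors were lower (13.1% of all genes), the median was -0.17 and 30 of 36 were below 0. Leaving it out also brought the values of 17 factors between the Con A groups closer to 0 by more than 1.5 times and turned the sign of Polr1e, Nob1 and Wdr12, while after Con A no sign turned. The count of 3 factors was also 0 without Con A + PBS mouse 1 or without Con A + hWJ-MSCs mouse 1, 2 or 3, and it was 1 without control mouse 2, 3 or 4. In the fit without it, 18 factors rose with hWJ-MSCs against control (14.1% of all genes).

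**Figure D2:**
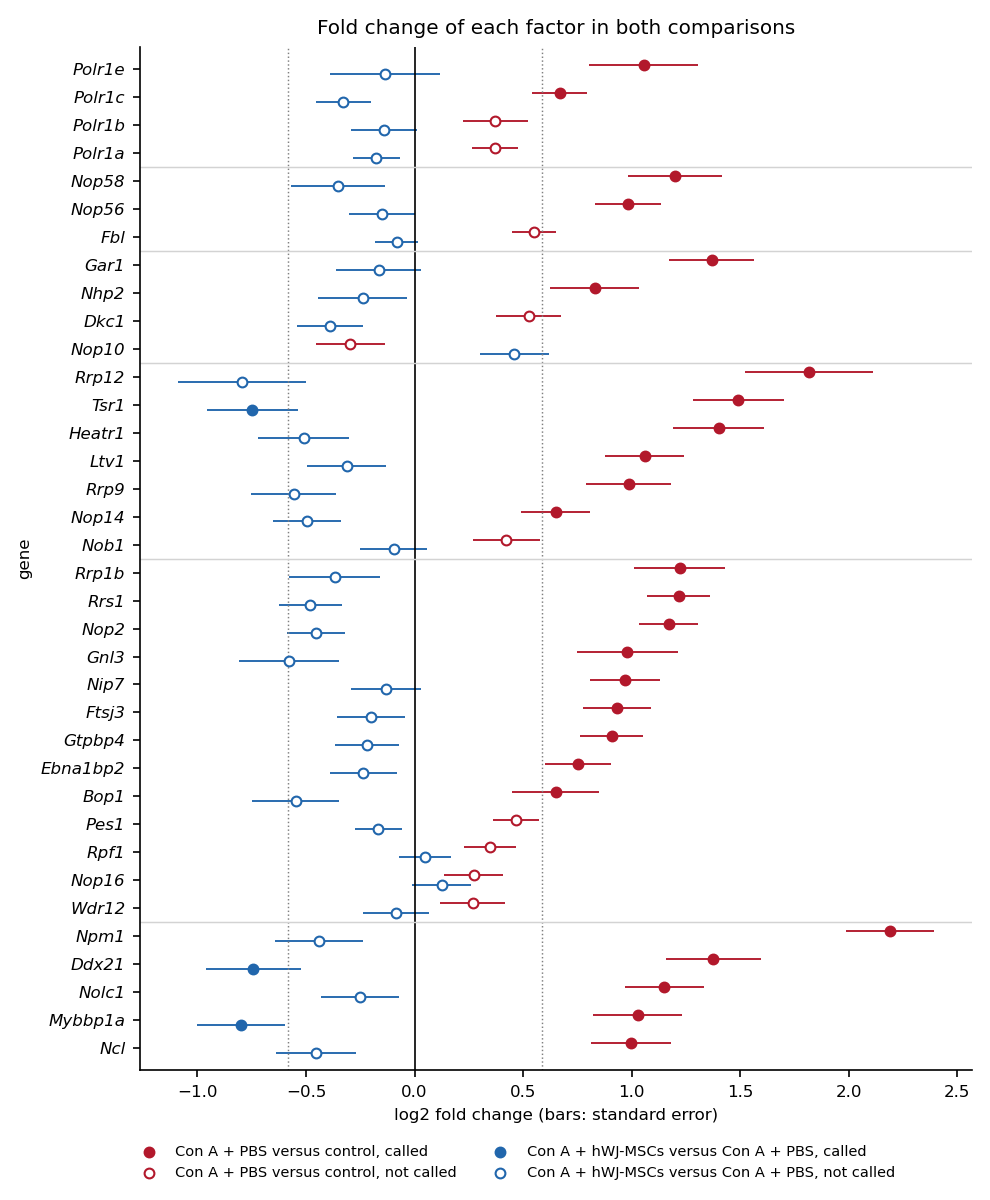
Log2 fold change (points) and standard error (bars) of each factor after Con A (red; Con A + PBS versus control) and between the Con A groups (blue; Con A + hWJ-MSCs versus PBS), from limma over all 12 mice. Filled points are called genes and dotted lines mark a fold change of 1.5; 26 red points and 3 blue points (Tsr1, Ddx21 and Mybbp1a) are filled.

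RNA polymerase I makes the long precursor of the ribosomal RNAs. Of the 4 of its subunits among the 36 factors, Polr1e and Polr1c rose after Con A. Further subunits were on the wider list of biogenesis factors described later, and Polr1d (0.44), Twistnb (0.35), Cd3eap (0.52) and Znrd1 (0.12) were not called after Con A. Values of mice are given in the order of their numbers, 1 to 4. Polr1e (chr4:45018583-45033692, plus strand), which belongs to a subcomplex that aids initiation and elongation, was at 62, 44, 68 and 64 in the control mice, 106, 86, 114 and 221 in the Con A + PBS mice and 100, 110, 130 and 110 in the Con A + hWJ-MSCs mice. Both treated groups lay wholly above control and overlapped each other, with Con A + PBS mouse 4 far above the rest. Its log2 fold change was 1.06 ± 0.25 (SE; limma adjusted p = 0.00352) after Con A and -0.14 (adjusted p = 0.731) between the Con A groups, a value that was 0.14 without Con A + PBS mouse 4. Polr1c (chr17:46243920-46248054, minus strand), a subunit shared with RNA polymerase III, was at 208, 250, 247 and 256 in control, 384, 342, 348 and 462 after Con A + PBS and 304, 286, 360 and 270 after Con A + hWJ-MSCs. The Con A + PBS mice did not overlap control, and the hWJ-MSCs mice lay between, overlapping the Con A + PBS mice with mouse 3 only. Its log2 fold change was 0.67 ± 0.13 (adjusted p = 0.000778) in the first comparison and -0.33 (adjusted p = 0.0893) in the second, and the first was 0.58 without Con A + PBS mouse 4, under the fold threshold. The 2 largest, catalytic subunits were not called. Polr1a, the largest subunit, was at 350 to 469 in control and 498 to 580 after Con A + PBS (log2 fold change 0.37, adjusted p = 0.0112), and for Polr1b the difference was 0.37 (adjusted p = 0.0515).

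The box C/D snoRNPs guide the methylation of ribosomal RNA and, with the U3 snoRNA, its cutting. Nop56 and Nop58 are paralogous scaffold proteins of the particle and fibrillarin (Fbl) is its methyltransferase. Nop58 (chr1:59684971-59692666, plus strand) is given by the coordinates of the transcript named in the table, while its whole gene in GENCODE M21 reaches to base 59719044 and holds Snord11. It was at 493, 360, 527 and 440 in control, 840, 888, 898 and 1720 after Con A + PBS and 928, 674, 938 and 738 after Con A + hWJ-MSCs. No treated mouse overlapped control, and 3 Con A + PBS mice lay within the span of the hWJ-MSCs mice. It rose 2.30-fold (SE 0.22 on the log2 scale, limma adjusted p = 0.000573) after Con A and its log2 fold change was -0.35 (adjusted p = 0.266) between the Con A groups, or -0.11 without Con A + PBS mouse 4. Nop56 (chr2:130274430-130279313, plus strand), the host of Snord110, was at 408, 326, 396 and 356 in control, 640, 730, 626 and 986 after Con A + PBS and 726, 596, 752 and 584 after Con A + hWJ-MSCs. Again the Con A groups overlapped each other and not the control mice. Its log2 fold changes were 0.98 ± 0.15 (adjusted p = 0.000169) and -0.15 (adjusted p = 0.501), the second being -0.0077 without that mouse. Fbl passed the adjusted p after Con A with a log2 fold change of 0.55 (adjusted p = 0.00057), which is a fold change of 1.46 and under the threshold. With hWJ-MSCs and against control, Nop58 was higher by 0.85 and Nop56 by 0.83, and both were called.

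Box H/ACA snoRNPs convert uridines of ribosomal RNA to pseudouridine and share their proteins with telomerase. The 4 core proteins did not move alike. Gar1 (chr3:129824912-129831396, minus strand) was at 34, 36, 40 and 24 in control, 94, 90, 89 and 75 after Con A + PBS and 82, 60, 86 and 84 after Con A + hWJ-MSCs. The treated mice lay above every control mouse, and Con A + PBS mouse 4 was the lowest of its group, as it was for 2 other factors, Nop10 and Rpf1. It rose 2.58-fold (log2 fold change 1.37 ± 0.19, limma adjusted p = 9.8e-05) after Con A and 2.30-fold (adjusted p = 0.000485) with hWJ-MSCs against control. Nhp2 (chr11:51619735-51623714, plus strand), an RNA-binding core protein, was at 481, 300, 342 and 268 in control, 590, 538, 493 and 848 after Con A + PBS and 562, 414, 600 and 490 after Con A + hWJ-MSCs. The lowest Con A + PBS mouse was just above the highest control mouse. Its log2 fold change was 0.83 ± 0.20 (adjusted p = 0.00425). Dkc1, the pseudouridine synthase of the particle, passed the adjusted p without the fold change after Con A (log2 fold change 0.53, adjusted p = 0.0106), and was at 158 to 224 with hWJ-MSCs, overlapping the 136 to 201 of control. Nop10, the smallest core protein, had the lowest fold change of the 36. It was at 696, 576, 622 and 392 in control, 518, 472, 460 and 382 after Con A + PBS and 578, 648, 630 and 654 after Con A + hWJ-MSCs. All 4 hWJ-MSCs mice were above all Con A + PBS mice, and it was the factor with higher values in that comparison counted above. Its log2 fold changes were -0.30 (adjusted p = 0.13) and 0.46 (adjusted p = 0.0669), so neither was called. With a mouse left out the first spanned -0.47, without control mouse 4, to -0.19, without control mouse 1.

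**Figure D3:**
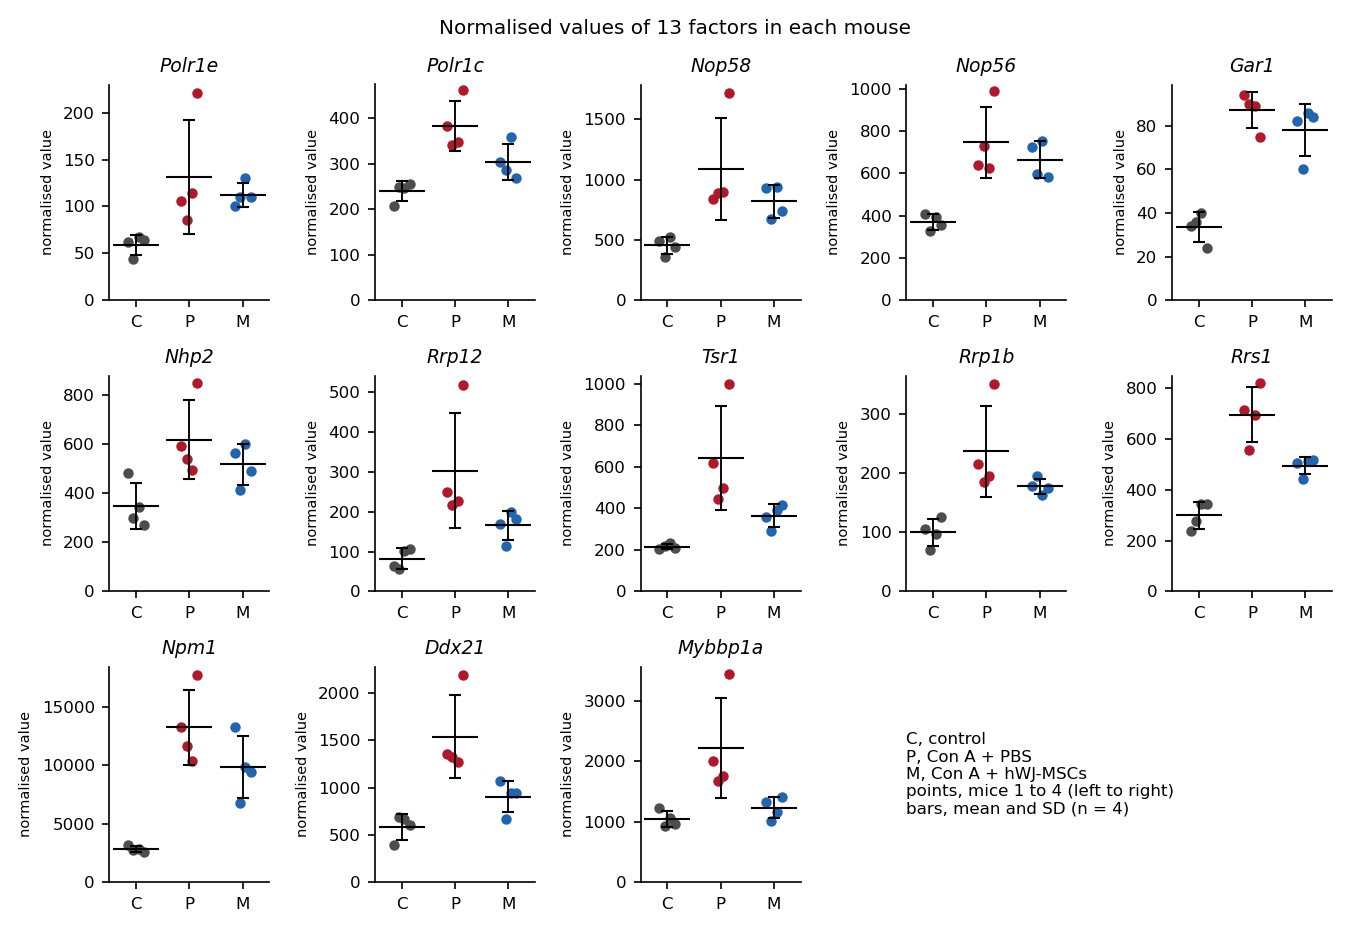
Normalised values of 13 factors described mouse by mouse (Nop10 is not drawn), with a linear axis from 0 for each gene. Points are mice 1 to 4 of control (C), Con A + PBS (P) and Con A + hWJ-MSCs (M), and bars give the mean and SD of 4 mice; in 10 of the 13 panels all treated mice lie above all control mice, the others being Nhp2, Ddx21 and Mybbp1a.

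Small subunit assembly starts on the nascent transcript and ends in the cytoplasm, and 6 of its 7 factors rose after Con A. Rrp12 (chr19:41862852-41896153, minus strand), a HEAT-repeat protein required for maturation and export of the subunits, was at 64, 57, 102 and 106 in control, 250, 216, 226 and 518 after Con A + PBS and 168, 114, 199 and 181 after Con A + hWJ-MSCs. The 3 groups did not overlap, with the hWJ-MSCs mice in between. Its log2 fold change was 1.82 ± 0.30 (limma adjusted p = 0.000262) after Con A, a 3.53-fold rise, and -0.80 ± 0.30 (adjusted p = 0.0821) between the Con A groups, which was not called and was -0.50 without Con A + PBS mouse 4. Tsr1 (chr11:74898071-74904940, plus strand), which binds the late precursor of the small subunit, was at 202, 221, 232 and 210 in control, 618, 446, 498 and 1000 after Con A + PBS and 357, 292, 394 and 418 after Con A + hWJ-MSCs. As for Rrp12, the hWJ-MSCs mice formed a separate middle group. Tsr1 rose by 1.49 ± 0.21 (adjusted p = 8.8e-05) after Con A and fell by 0.75 ± 0.21 on the log2 scale (adjusted p = 0.0396) between the Con A groups, and was still 1.67-fold above control (adjusted p = 0.0136). Without Con A + PBS mouse 4 the second value was -0.51 (adjusted p = 0.0616) and was not called.

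The other genes of this role were Heatr1, a scaffold of the early processome, Ltv1, a late assembly factor, Rrp9, a protein of the U3 snoRNP, Nop14, a processome component, and Nob1, the nuclease that makes the final cut. The log2 fold change after Con A was 1.40 for Heatr1, 1.06 for Ltv1, 0.99 for Rrp9 and 0.65 for Nop14, all called, and 0.42 for Nob1 (limma adjusted p = 0.0333), which lay under the fold threshold. Between the Con A groups, the values of Heatr1 (-0.51, adjusted p = 0.109), Rrp9 (-0.56, adjusted p = 0.0718) and Nop14 (-0.49, adjusted p = 0.0547) did not overlap but were not called. Heatr1 was at 154 to 287 in control, 506 to 752 after Con A + PBS and 294 to 468 after Con A + hWJ-MSCs, so that its 3 groups were apart as well.

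Large subunit assembly holds the longest list, and 9 of its 13 factors rose after Con A. Rrs1 (chr1:9545408-9547455, plus strand), which helps to bring the small RNA of the large subunit into the precursor, was at 236, 276, 344 and 342 in control, 713, 558, 692 and 820 after Con A + PBS and 505, 443, 514 and 518 after Con A + hWJ-MSCs. The 3 groups did not overlap. The log2 fold change was 1.22 ± 0.14 (limma adjusted p = 2.7e-05) after Con A and -0.48 ± 0.14 (adjusted p = 0.0478) between the Con A groups, which passed the adjusted p but not the fold threshold. Rrp1b (chr17:32036100-32062865, plus strand), a nucleolar protein of the large subunit precursor, was at 105, 70, 98 and 127 in control, 216, 186, 196 and 352 after Con A + PBS and 178, 195, 164 and 175 after Con A + hWJ-MSCs. Here only mouse 2 of the hWJ-MSCs group reached into the span of the Con A + PBS mice. Its log2 fold changes were 1.22 ± 0.21 (adjusted p = 0.000391) and -0.37 (adjusted p = 0.23), the second being -0.16 without Con A + PBS mouse 4.

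Nop2, an rRNA methyltransferase whose promoter holds the upstream E-box above, resembled Rrs1. It was at 219 to 274 in control, 493 to 718 after Con A + PBS and 346 to 458 after Con A + hWJ-MSCs, with log2 fold changes of 1.17 (limma adjusted p = 2.2e-05) and -0.45 (adjusted p = 0.0469). Gnl3 (nucleostemin, a nucleolar GTPase), Nip7, Ftsj3 (an rRNA methyltransferase), Gtpbp4 (a GTPase), Ebna1bp2 and Bop1 also rose after Con A, with log2 fold changes from 0.65 for Bop1 to 0.98 for Gnl3. The partners of Bop1 in a trimeric complex of large subunit processing were not called. Pes1 differed by 0.47 (adjusted p = 0.00278), under the fold threshold, and Wdr12 by 0.27 (adjusted p = 0.149), or by 0.13 without Con A + PBS mouse 4. Rpf1 differed by 0.35 (adjusted p = 0.0251) and Nop16 by 0.27 (adjusted p = 0.105). Nop16 and Rpf1 were, with Nop10, the factors above 0 between the Con A groups, at 0.12 and 0.05. For Bop1 the hWJ-MSCs mice were at 371 to 507, below all Con A + PBS mice (556 to 855), and overlapped the control mice (272 to 498).

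All 5 genes of nucleolar organisation and regulation rose after Con A. Npm1 (chr11:33152287-33163206, minus strand), nucleophosmin, a chaperone that helps to hold the nucleolus together, had the highest fold change of the 36. It was at 3168, 2792, 2830 and 2584 in control, 13253, 11618, 10370 and 17674 after Con A + PBS and 13253, 6764, 9880 and 9428 after Con A + hWJ-MSCs. The lowest treated mouse was more than 2-fold above the highest control mouse, and the Con A groups overlapped. The log2 fold change was 2.19 ± 0.20 (limma adjusted p = 4.0e-06), a 4.57-fold rise, and with hWJ-MSCs it was 1.75 (adjusted p = 4.4e-05) against control and -0.44 (adjusted p = 0.144) against Con A + PBS, or -0.29 without Con A + PBS mouse 4. Ddx21 (chr10:62580248-62602298, minus strand), an RNA helicase of ribosomal RNA transcription and processing, was at 392, 694, 668 and 607 in control, 1360, 1330, 1270 and 2192 after Con A + PBS and 1072, 672, 944 and 944 after Con A + hWJ-MSCs. All hWJ-MSCs mice were below all Con A + PBS mice, and mouse 2 lay within the control span. Ddx21 rose by 1.38 ± 0.22 (adjusted p = 0.00023) after Con A and fell by 0.74 ± 0.22 on the log2 scale (adjusted p = 0.0466) with hWJ-MSCs. Without Con A + PBS mouse 4 the second value was -0.56 (adjusted p = 0.105) and was not called.

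Mybbp1a (chr11:72441355-72451768, plus strand), a nucleolar protein that represses RNA polymerase I transcription and takes part in rRNA processing, showed the lowest fold change between the Con A groups. It was at 1227, 935, 1072 and 962 in control, 2010, 1680, 1760 and 3442 after Con A + PBS and 1328, 1017, 1171 and 1408 after Con A + hWJ-MSCs. The hWJ-MSCs mice overlapped control and lay below every Con A + PBS mouse. It rose by 1.03 ± 0.20 (limma adjusted p = 0.00105) after Con A and fell by 0.80 ± 0.20 on the log2 scale (adjusted p = 0.0317) with hWJ-MSCs, with a difference of 0.23 from control (adjusted p = 0.394). Without Con A + PBS mouse 4, the second value was -0.57 (adjusted p = 0.0471), which passed the adjusted p and missed the fold threshold. Nolc1, a chaperone of snoRNPs, rose by 1.15 and nucleolin (Ncl), a major RNA-binding protein of the nucleolus, by 1.00 after Con A. Ncl was at 2760 to 3126 in control, 4834 to 8908 after Con A + PBS and 3542 to 5138 after Con A + hWJ-MSCs, with -0.46 (adjusted p = 0.103) between the Con A groups, or -0.25 without Con A + PBS mouse 4.

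The rest of the pathway was examined from a wider list of 127 other ribosome biogenesis factors, of which 126 were in the table. After Con A, 50 rose (39.7%, beside 19.5% of all genes) and 0 fell (19.2% of all genes; 3 were lower at an unadjusted p below 0.05), with a median log2 fold change of 0.50 and 117 of 126 above 0. The median of the 36 factors, 0.97, was further from the 0.05 of all genes. Eif6 keeps new large subunits from joining small ones before they are mature, and it was at 634, 783, 740 and 815 in control, 2900, 2078, 2550 and 5036 after Con A + PBS and 1777, 1046, 1724 and 1946 after Con A + hWJ-MSCs. Its 3 groups were apart, and it rose by 2.00 (limma adjusted p = 4.1e-05) and fell by 0.91 on the log2 scale (adjusted p = 0.0387). Taf1c, a subunit of the RNA polymerase I selectivity factor, rose 2.84-fold and Nol10 2.65-fold. The control mice were all below 64 for Taf1c (40 to 49), so that, like Gar1, it is in the table through its values after Con A. Of the 126, 4 reached 64 in fewer than 2 control mice (3.17%, beside 6.40% of all genes). Beside Taf1c they were Nle1, which was at 18 to 46 in control and also rose, and Cd3eap and Taf1a, which were not called. Nle1 and Taf1a are named after their values were seen. Between the Con A groups, 5 of the 126 fell (3.97%, beside 4.38% of all genes) and 0 rose (4.20% of all genes, with 5 higher at an unadjusted p below 0.05). The median was -0.18, or -0.08 without Con A + PBS mouse 4. The share that fell was near that of all genes. Beside Eif6 they were Mdn1 (-0.81), Utp20 (-0.73), Urb1 (-0.62) and Dhx37 (-0.61), the last 2 named after their values were seen. The count of 5 was 0 without Con A + PBS mouse 1 or 4, without Con A + hWJ-MSCs mouse 1, 2 or 3 and without control mouse 3, 1 without Con A + PBS mouse 3, and 2 without control mouse 2. Against control, 17 rose with hWJ-MSCs (13.5%, close to the 13.6% of all genes) and 0 fell (13.1% of all genes; 1 lower at an unadjusted p below 0.05). By the adjusted p alone 47 were higher (22.3% of all genes), 114 of 126 were above 0, and the median was 0.33.

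**Figure D4:**
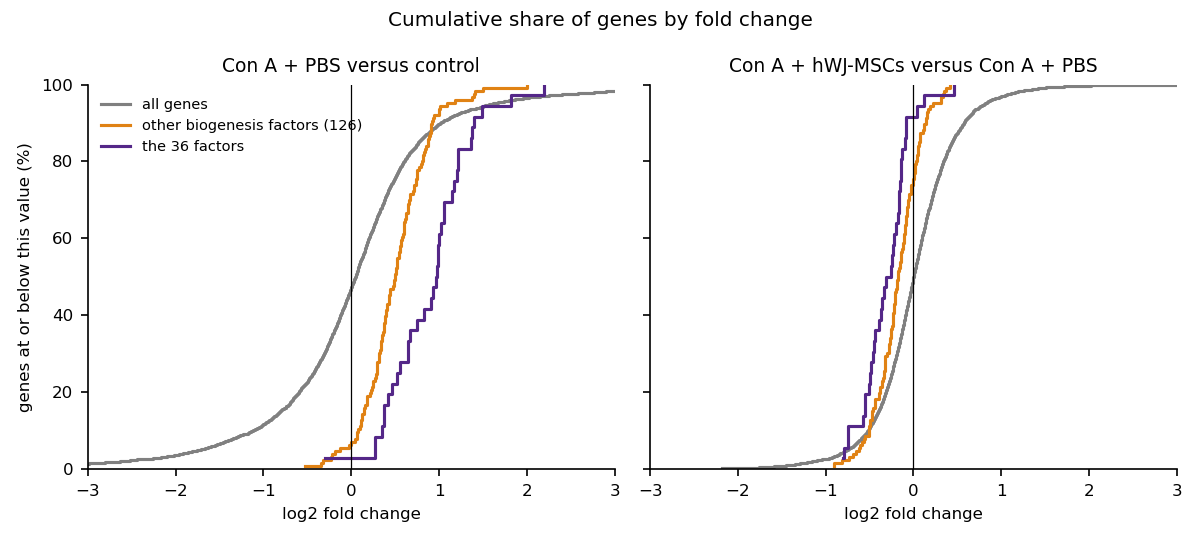
Cumulative share of genes (vertical axis, %) at or below each log2 fold change (horizontal axis) for all 11289 genes, the 126 other biogenesis factors and the 36 factors, in the 2 comparisons. After Con A (left) the medians are 0.05, 0.50 and 0.97, and between the Con A groups (right) they are 0.00, -0.18 and -0.28.

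The nuclear exosome trims the ends of ribosomal RNA precursors, and 6 of its 13 subunits in the table (14 listed) rose after Con A (19.5% of all genes) while 0 fell (19.2% of all genes; 1 lower at an unadjusted p below 0.05). Mphosph6, an exosome-associated protein, rose by 1.13, Exosc1 by 0.82, Exosc2 by 0.76 and Exosc3 by 0.62 (limma), the last call being lost without control mouse 4. Mphosph6 was at 40 to 62 in control, below 64 in every mouse, and is in the table through its values after Con A. Between the Con A groups 0 were called, the median was 0.01, and at an unadjusted p below 0.05 there were 3 higher and 2 lower of 13, where 2028 and 1878 of the 11289 genes were, so these shares were near those of all genes. Only 6 of 79 listed cytosolic ribosomal proteins were in the table, too few to describe the ribosome itself. Of these, 5 rose after Con A (19.5% of all genes), among them Rplp2 (1.41) and Rplp0 (1.13) of the ribosomal stalk, Rpsa (1.00) and Fau (0.76), and 0 were called between the Con A groups, where 5 of 6 were above 0 and 0 had an unadjusted p below 0.05.

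Among 10 genes of the MYC network in the table (12 listed), Myc itself changed the most. It was at 106, 58, 39 and 48 in control, 578, 282, 274 and 1692 after Con A + PBS and 152, 74, 112 and 113 after Con A + hWJ-MSCs. Every Con A + PBS mouse was above every mouse of the other groups, and Con A + PBS mouse 4, which had the highest median over the 36 factors, was also the highest for Myc. Control mouse 1 was the only control mouse at or above 64, so Myc too owes its place in the table to the treated mice. Myc had a log2 fold change of 3.15 ± 0.50 (limma adjusted p = 0.000232) after Con A and -2.25 ± 0.50 (adjusted p = 0.0252) with hWJ-MSCs, leaving a difference of 0.89 from control (adjusted p = 0.174). The call between the Con A groups was lost without Con A + PBS mouse 1 or Con A + hWJ-MSCs mouse 2 or 3, with values from -2.56 to -1.69 over all leave-one-out fits. Max, the partner of MYC on DNA, rose by 0.62 after Con A, a call lost without Con A + PBS mouse 4 or control mouse 4. Mxd1, a repressor that competes with MYC for MAX, rose by 2.17 and fell by 1.25 on the log2 scale with hWJ-MSCs, and Mnt, another such repressor (named after its values were seen), fell by 0.79. The fall of Mxd1 was not called without Con A + PBS mouse 1 or Con A + hWJ-MSCs mouse 2 or 3. Mycl and Mxd4 fell after Con A by 1.11 and 0.64, and the call of Mxd4 was lost without Con A + PBS mouse 4 or control mouse 2 or 4. Whether Myc had a part in the level of the 36 factors was not tested. Of the 5 factors with an E-box in the window, 4 rose after Con A, with log2 fold changes from 0.47 to 1.49 and a median of 1.06, and of the 25 without it 18 rose, with a median of 0.93. In the table as a whole, 189 of 868 genes with an E-box and 1453 of 7624 without it rose.

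**Figure D5:**
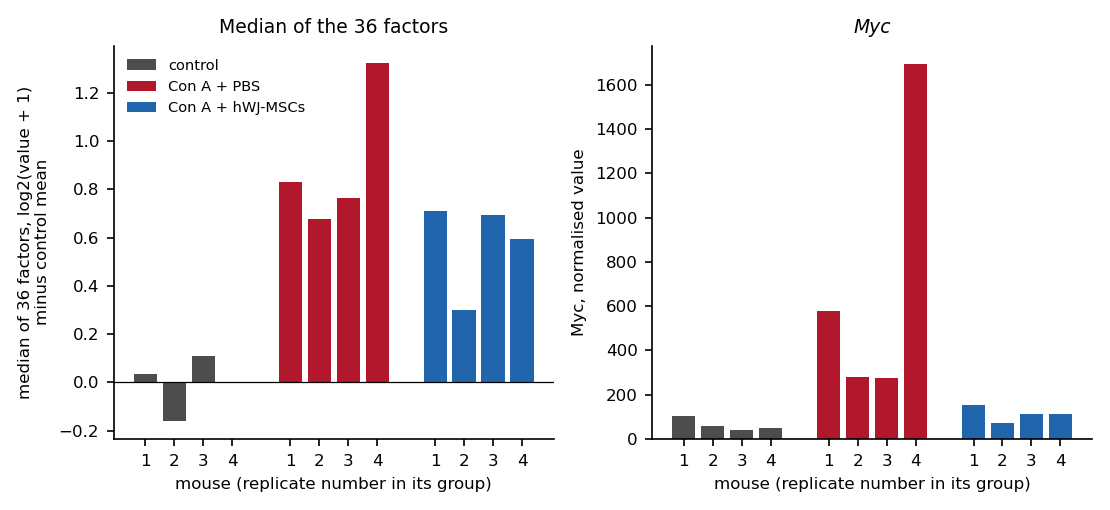
Left, median over the 36 factors of log2(value + 1) minus the control mean in each mouse; right, normalised value of Myc in each mouse (both axes linear). Con A + PBS mouse 4 is the highest in both panels, at 1.32 and 1692.

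Markers of the cell types in liver moved with the groups as well. The 3 of 10 T cell markers in the table summed to 15 to 43 in control, 226 to 358 after Con A + PBS and 222 to 313 after Con A + hWJ-MSCs. The defining Cd3e, Cd3d, Cd3g and Trac are not among them, and Cd8a and Cd28 were listed at 0 in 1 control mouse each. The 7 of 9 neutrophil markers summed to 70 to 147, 1174 to 2064 and 879 to 1746, and the 4 of 6 NK cell markers to 102 to 171, 340 to 486 and 326 to 660 in the same order. All 10 macrophage and Kupffer cell markers were in the table and summed to 4875 to 7362, 1828 to 2626 and 969 to 2709, with 9 that fell and 1 that rose after Con A. Of the 12 hepatocyte markers 11 were in the table, and 6 fell and 1 rose after Con A, with sums of 1465896 to 1899178, 1045626 to 1060288 and 1041963 to 1126767. These sums are bounded by the scale, since Alb and Cps1 had the same value in all 12 mice and Fgb was at 341028, the largest value of the table, in all 8 treated mice. The other 8 hepatocyte markers summed to 812625 to 1337415, 215610 to 230272 and 211947 to 296751. The 4 of 10 proliferation markers in the table all rose, with sums of 159 to 413, 325 to 677 and 408 to 581. The 9 endothelial markers summed to 2971 to 4250, 1630 to 2189 and 1802 to 2367, with 5 that fell and 1 that rose after Con A. Between the Con A groups, the called ones were Lyve1 (-0.90) and Cdh5 (-0.66), which fell, and Stab2 (0.59), which rose. Of the 9, 6 were above 0 in that comparison, with a median of 0.14. The 7 of 8 stellate cell and fibroblast markers summed to 4915 to 7782, 6213 to 7159 and 4550 to 9602. Dcn makes up most of the latter sum in the control and Con A + PBS mice, and 2 of these 7 markers, Reln (444 to 942 in control and 85 to 138 after Con A + PBS) and Lrat (268 to 452 and 52 to 82), fell after Con A. All 3 T cell and all 7 neutrophil markers, 3 of the NK cell and 2 of the proliferation markers reached 64 in fewer than 2 control mice, so they are in the table through the treated mice. None of the 6 B cell markers was in the table. Con A + PBS mouse 4 had the lowest sums of its group for T cells (226), NK cells (340), neutrophils (1174), macrophages (1828), endothelial cells (1630) and proliferating cells (325). The part of these cell types in the level of the 36 factors was not tested.

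Several of the 36 genes share sequence or position with other genes, and how the authors' counting treated strand is not given in the sources used here. By GENCODE M21, 15 factors overlap an exon of a gene on the opposite strand. For Tsr1 this is Srr, which fell by 0.87 after Con A, for Mybbp1a it is Spns2, which fell by 1.02, and for Nop56 it is Idh3b, which fell by 0.66, so that these neighbours changed opposite to the factor. For Rrp9 and Bop1 the neighbours Parp3 and Mroh1 rose too, by 1.12 and 0.71. Transcripts of 7 factors matched another gene over at least 200 bases at 95% identity or more, among them Npm1 and Nop56 with 4 pseudogenes each, and Tsr1 and Ddx21 with 1 each. Reads of such a pair cannot be told apart with certainty, and the values of these 7 factors (Npm1, Nop56, Pes1, Fbl, Tsr1, Ddx21 and Wdr12) carry that uncertainty.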

How the data were processed

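Liver RNA of 12 mice was analysed as poly(A) libraries read as 150 bp paired ends. The authors deposited one value per gene and mouse, treated here as a score: a whole number already normalised between mice, since 82.1% of ranks hold the same value in all mice. The submitters' processing notes name Bowtie2 2.2.1, RSEM 1.2.18 and the build mm10, and the step that normalised the values is not given in the sources used here. No count test was used, and the depth is unknown. Log2(score + 1) was fitted with limma 3.58.1 (R 4.3.3; lmFit, eBayes with trend) in 1 model of 12 mice, with 3 contrasts and p-values adjusted over 11289 genes. Calls needed both a fold change of more than 1.5, as in the study's methods, and an adjusted p under 0.05. The script was tested on simulated data. Transcripts were compared with GENCODE M21 by BLAST 2.17.0, and summaries and plots were made in Python 3.11.15 (pandas 2.3.3, numpy 2.4.6, matplotlib 3.10.9).

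The factors and gene lists were chosen with earlier results of these data known, so they are not independent evidence of a direction. In each role, values of every mouse are given for the 2 factors with the largest absolute log2 fold change after Con A and for every factor called between the Con A groups, with Nop10 added as the lowest fold change after values were seen. Of the other biogenesis factors, up to 3 in each direction and comparison are named, and of the remaining lists up to 4 called genes each, with Myc and Max. Promoters are shown for the 3 largest rises that had an entry and for the lowest fold change. E-box windows, snoRNAs, single marker genes and the further polymerase subunits were added after values were seen. Replicates are the mice of a group as labelled, no 2 of which had identical values. Alternatives were a pseudocount of 10, a mean of at least 100, median centring, quantile normalisation, no variance trend, only the 8 mice compared, unadjusted p, other fold thresholds, each mouse left out, and the replicate number as a block. Protein sequences were not used here.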

Additional observations from a re-analysis of the deposited data

Results flagged for a closer look

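Of 162 sets of 4 mice examined (1 gene in 1 group), 19 had a highest or lowest mouse that stood apart. Its gap to its nearest neighbour, divided by the range of the group on the log2(value + 1) scale, was above Dixon's 95% critical value for 4 values. Chance flags about 1 in 20 independent sets. The genes of a group were measured in the same 4 mice, so the counts of flags cannot be set against that rate. Of the 108 sets of the 36 factors 12 were flagged. In 7 of them Con A + PBS mouse 4 stood above its group, with a gap of 0.907 of the range for Nop58, 0.833 for Rrp12, 0.862 for Bop1, 0.913 for Ebna1bp2, 0.868 for Nip7, 0.865 for Ncl and 0.875 for Ddx21. In 4, Con A + hWJ-MSCs mouse 2 stood below its group, with 0.867 for Gar1, 0.838 for Heatr1, 0.837 for Rrs1 and 0.951 for Nolc1. The remaining factor was Rrp9, where control mouse 2, at 100, stood below its group by 0.944.

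Among the other genes named, Con A + PBS mouse 4 was apart for Nol10 (0.942, high), Mxd4 (0.862, low) and Rplp2 (0.842, low), and Con A + hWJ-MSCs mouse 2 was apart for Utp20 (0.881, low) and Rplp0 (1, low, the other mice having equal values). Control mouse 1 was low for Exosc2 (0.83) and Rplp0 (0.876). The cause of these deviations was not tested.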

How the results depend on the processing

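Under no alternative were any of the 36 factors called against the direction reported. After Con A, the 26 factors that rose became 14 at a fold change above 2, and 23 to 27 when each mouse was left out. Of the 126 other biogenesis factors, the 50 that rose became 10 at a fold above 2 and 83 with no fold threshold. With a mouse left out they became 37 to 56. Those lower became 3 with no fold threshold and 0 to 1 with a mouse left out. Over all genes, the 90th percentile of the log2 fold change after Con A was 1.01, near a fold of 2. The share of all genes called at that fold is not given here. The 10 of 126 therefore do not show an excess over all genes at a fold above 2. Between the Con A groups, the 3 factors that fell became 0 at a fold above 2, 5 with no fold threshold, 0 with only the 8 mice compared and 0 to 4 with a mouse left out. The 5 other factors that fell became 2 without a variance trend, 0 at a fold above 2, 9 with no fold threshold, 1 with only the 8 mice compared, 8 by the unadjusted p and 0 to 7 with a mouse left out. The calls of Tsr1, Ddx21 and Mybbp1a were lost in 8, 10 and 5 of 12 leave-one-out fits. Against control, the 18 factors that rose with hWJ-MSCs became 3 at a fold above 2 and 16 to 21 with a mouse left out. Changes with the fold threshold follow from that threshold, and the cause of the others was not tested. Among the 36 factors, signs turned in leave-one-out fits of uncalled values and under no other alternative. Between the Con A groups these were Polr1e, Nob1 (0.0374) and Wdr12 (0.0513) without Con A + PBS mouse 4 and Rpf1 (-0.0104 at the lowest) without Con A + hWJ-MSCs mouse 1 or 3, and against control Bop1 (-0.0879) without control mouse 1 and Nop10 (-0.00609) without control mouse 4 in the group with hWJ-MSCs. Among the named genes, leave-one-out values between the Con A groups that crossed 0 spanned -0.0239 to 0.0862 for Rplp0, -0.095 to 0.114 for Mphosph6, -0.307 to 0.143 for Polr1e, -0.0257 to 0.281 for Mxd4, -0.112 to 0.121 for Exosc1 and -0.0818 to 0.0411 for Rpsa. Depth is unknown, so what it limits could not be judged.

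With the replicate number as a block, 26 factors rose after Con A (19.7% of all genes), 4 fell between the Con A groups (5.47% of all genes) and 18 rose against control (13.9% of all genes), and 8 other biogenesis factors fell between the Con A groups. The correlations of same-numbered mice spanned -0.113 to 0.168, -0.0867 to 0.375 and -0.118 to 0.112 in the 3 comparisons. In the same order, 2, 4 and 3 of 8 mice correlated best with their own number. Between the Con A groups, mice 2 and mice 4 correlated at 0.375 and 0.244 with their own number, and at -0.322 and -0.385 when crossed. With 4 mice in a group these values cannot decide whether the numbers pair the mice, and the main fit used no pairing.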
